A study of Rattus norvegicus with 35 samples.

Results

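The cytosolic ribosome is built from a large (60S) and a small (40S) subunit, each a scaffold of ribosomal RNA with many small, mostly basic proteins. Messengers for these proteins are among the most abundant in any growing cell, and many begin with a 5′ terminal oligopyrimidine (TOP) tract, a C followed by further pyrimidines, through which mTOR signalling controls their translation. In the heart, the supply of ribosomes is a known part of myocyte growth under load, and several ribosomal proteins have roles outside the ribosome, for example in the p53 pathway. The genes described here are those of the array's annotation whose probe-set carries a single gene symbol starting with Rpl or Rps (or Rplp, or Rpsa), without the Rps6k kinases. This gave 44 genes (30 of the large and 14 of the small subunit) out of 4736 genes with a single symbol, and for the 17 genes with several probe-sets the one with the highest mean signal over all arrays was used.

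RNA had been hybridised to 35 RG-U34A arrays, which are Affymetrix 3′ expression arrays for the rat. Cultures enriched for neonatal rat cardiomyocytes (CM) and cultures of neonatal rat cardiac fibroblasts (FB) received 1 of 3 stressors: mechanical stress (MS, 24 h of cyclic stretch on collagen I coated Flexcell plates, with unstretched plates of the same kind as control), ionising radiation (IR, 8.5 Gy of X-rays) or ultraviolet radiation (UV, 10 J/m2 of UVC). RNA was taken at the end of stretch or 24 h after irradiation or sham-irradiation (the label of the first FB IR control gives a dose of 0 Gy and no time), and each group has 3 arrays except the CM controls for UV with 2. Irradiated CM and their controls were sorted by elutriation after treatment and are called fractions, whereas stretched CM and all FB were taken as cultures. None of the CM samples is a pure myocyte population. The study reports a different share of myocytes for each stressor, lowest in the cultures for MS and highest in the fractions for UV. In such mixed samples a smaller number of cells of a type and less RNA per cell cannot be told apart. Strain and age beyond neonatal are not given in the sources used here.

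The start of the transcript is shown for some of the members named below and for Rps27, because the TOP tract lies there. Each line gives 15 bases before and 15 bases from the RefSeq start of the gene (rat build GRCr8), 5′ to 3′ on the transcribed strand, with an uninterrupted run of pyrimidines in capitals where the start base is C and the next 4 bases are each C or T.
Rplp0 (chr12:46718376-46718405, minus strand): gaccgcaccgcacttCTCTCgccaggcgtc
Rpl14 (chr8:129163605-129163634, plus strand): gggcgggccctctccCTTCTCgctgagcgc
Rpl19 (chr10:83519049-83519078, plus strand): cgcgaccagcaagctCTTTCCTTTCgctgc
Rps27 (chr2:177964592-177964621, minus strand): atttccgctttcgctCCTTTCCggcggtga
Rps27l (chr8:76443643-76443672, plus strand): gtttattcatttgtcattatttgtggtgtc
Rpl13a (chr1:104748899-104748928, minus strand): cctcttcctttcctaggcggctgccgaaga
Rpl3l (chr10:14258431-14258460, plus strand): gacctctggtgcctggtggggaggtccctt
Such a tract stood at the start of 11 of the 37 members with a sequence (29.7%), 9 of them in the large subunit, against 2.63% of all 33469 annotated starts. Rps27l, Rpl13a and Rpl3l have none at this start, and neither do Rpl41 and Rpsa, which are not printed. This says only that these letters are not at the base the annotation gives. Rps27 is printed as the near-identical relative of Rps27l. None of the 44 is annotated with the symbol Rps27, but the probe-set annotated as Rps27l may measure it, as described below.

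Most of the members gave bright signals: 36 of 44 had a mean log2 normalized intensity of at least 9, and the median over the members was 11.69. Their median percentile among all probe-sets was 98.35. The shares and medians of all genes given below take in dim genes, and a background of equally bright genes was not computed. The 8 dim probe-sets are those of Rplp1l3, Rps2-ps1, Rpl5, Rpl30, Rpl17, Rpl3l, Rps24 and Rpl19l4. Rps2-ps1 and Rps4x-ps9 are annotated as pseudogenes, and Rpl19l4, Rplp1l3 and Rpl36al1 carry symbols of gene copies. Ribosomal protein genes have many near-identical copies, so a probe-set can collect signal from more than 1 of them. A further 40 probe-sets that the annotation assigns to several symbols, among them those of Rps18 and Rpl32, which are used as reference transcripts, are not members.

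In untreated cells the members took a larger share of the summed normalized signal in FB than in CM of the same stressor's experiments, although these levels were not tested. The share was 6.09 to 6.15% in the FB controls for UV and 4.26 to 4.51% in the CM controls for UV. In the controls for MS it was 5.89 to 6.43% in FB and 5.45 to 5.67% in CM, and in the controls for IR 5.46 to 6.52% and 4.48 to 4.79%. All FB controls and the CM controls for MS were deposited at a trimmed mean of 200.3 to 200.4. The CM controls for IR and CM control 2 for UV were deposited at 1001.5 to 1001.7. In the controls for IR, population and deposited array scale thus cannot be told apart, and for UV they are partly mixed. The lowest FB values came from experiment 3 for IR, where the control read 5.46% and the irradiated culture 5.30%. In the CM fractions for UV all 3 treated arrays (5.07 to 5.18%) lay above their controls. In FB after UV the treated arrays read 6.40, 5.95 and 6.44%, and in CM after MS 5.37, 5.33 and 5.72%, so that in both some lay above and some below the range of their controls.

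**Figure D1:**
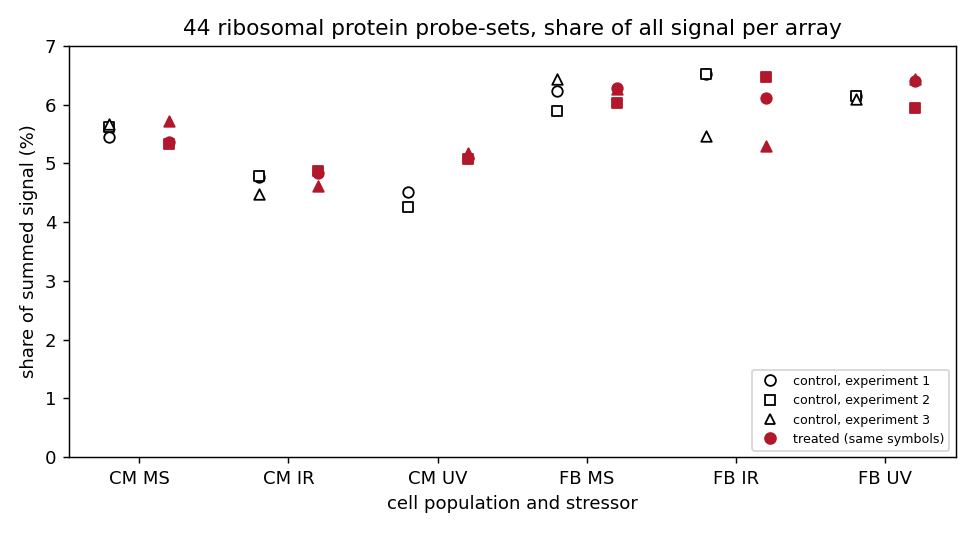
Share of the summed normalized signal of an array that falls on the 44 ribosomal protein probe-sets (vertical axis, percent, from 0), for each population and stressor (horizontal axis); open symbols are controls, red symbols treated arrays, and the symbol shape gives the numbered experiment. All FB shares lie between 5.30 and 6.52% and all CM shares between 4.26 and 5.72%, and after UV the 3 treated CM arrays lie above both controls.

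After MS, no ribosomal protein gene passed the test in either population. In CM the median log2 change of the 44 members was -0.02 (large subunit -0.05, small subunit 0.00), and in FB it was 0.00 (-0.01 and 0.04), beside a median of 0.00 over all genes in both. None was called by limma at an adjusted p below 0.05, where 0% of the 4736 genes were called in either direction. At an unadjusted p below 0.05 there were 2 of 44 members in CM and 0 in FB, beside 230 and 249 of the 4736 genes. In all 3 experiments of CM 1 member was higher and 8 were lower (11.2% and 11.7% of all genes), and in all 3 of FB 4 were higher and 11 lower (9.97% and 8.87% of all genes). The 2 members in CM at an unadjusted p below 0.05 were Rpl27 and Rpl24, both of the large subunit. Rpl27 was lower by 0.11, 0.28 and 0.17 on the log2 scale in the 3 CM experiments (change -0.19, SE 0.06, adjusted p 1). Its second probe-set changed by only -0.02 (SE 0.089). Rpl24 was lower by 0.12, 0.08 and 0.18 (change -0.13, SE 0.05, adjusted p 1), and its second probe-set changed by -0.164 (SE 0.065). Rps24 came next with 0.25 (SE 0.13, adjusted p 1), and in FB the smallest p values belonged to Rps16 (0.12, SE 0.07), Rps4x-ps9 (-0.28, SE 0.16) and Rpl36al1 (-0.29, SE 0.17), with adjusted p of 0.988, 1 and 1. The precision was high for most members: the 95% interval of the change lay within a 1.5-fold rise or fall for 38 of 44 members in CM and for 35 in FB.

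After IR, 1 member changed in CM fractions and none in FB. That member is the probe-set annotated as Rps27l, a small subunit protein closely related to Rps27 that is known from human cells as a transcriptional target of p53. The annotation used here names it Rps27l, whereas the gene description used in the study names it ribosomal protein S27. The transcript it measures is therefore uncertain between these near-identical relatives. The name Rps27l stands here for this probe-set, whichever of them it measures.

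In CM its log2 intensity was 10.48, 10.45 and 10.05 in the sham-irradiated fractions and 11.16, 11.05 and 10.95 in the irradiated fractions of the same experiments. Every irradiated array lay above every control. The change was 0.73 (SE 0.07, 95% interval 0.58 to 0.88, adjusted p 4e-04 by limma), a 1.66-fold rise, and it was the only call among the 44 members where 0.317% of all genes were called higher. Scan and array lot differ among these arrays, since irradiated array 3 had its own scan and irradiated arrays 1 and 3 another lot than the rest. With the scan as a term the estimate comes from experiments 1 and 2 alone and was 0.64 (adjusted p 0.00439). With the lot as a term it comes from experiment 2 alone and was 0.60. Neither term is thus a check separate from leaving out experiments. Fitted on the arrays of this comparison alone, with few residual degrees of freedom, the change of 0.73 did not pass (adjusted p 0.507). Experiment 2, whose arrays share scan and lot, is the source of that 0.60. Irradiated array 3 also had the highest 3′/5′ ratio of the array's Gapdh and actin controls (1.48 and 2.33). Without its pair, which again leaves experiments 1 and 2, the change was 0.64 (adjusted p 0.00441).

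In FB the same probe-set read 11.42, 11.20 and 10.92 in the sham-irradiated and 11.41, 11.50 and 11.01 in the irradiated cultures. The groups overlapped, and the change of 0.12 (SE 0.07, 95% interval -0.03 to 0.27, adjusted p 0.804) did not pass. The difference between the populations, 0.60 on the log2 scale (SE 0.10, 95% interval 0.39 to 0.82), narrowly missed the threshold with an adjusted p of 0.0539, where 0.0211% of all genes were called higher and 0.0422% lower in this difference. Rpl27 had the next smallest p in that difference (0.42, SE 0.09, adjusted p 0.19), with a change of 0.22 in CM and -0.20 in FB.

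The other members had changes of -0.24 to 0.32 in CM and -0.33 to 0.29 in FB after IR. The median of all 44 was 0.01 in CM and -0.07 in FB, and 13 of 44 were above 0 in FB against 47.4% of all genes. None of the 44 was called in FB, where 0.0633% of genes were called higher and 0.0845% lower. In FB 3 of 44 members had an unadjusted p below 0.05, beside 346 of the 4736 genes. These were Rpl27 (-0.20, SE 0.06, adjusted p 0.48), Rpl36 (-0.17, SE 0.08, adjusted p 0.701) and Rps15 (-0.20, SE 0.09, adjusted p 0.714), each lower in all 3 experiments. In all 3 FB experiments 0 members were higher and 9 lower (11.1% and 12.4% of all genes), and in all 3 CM experiments 7 were higher and 4 lower (14% and 13.8%). The small negative median in FB was 0.01 and 0.02 when arrays were scaled without quantile normalization. The intervals lay within 1.5-fold for 38 members in CM and 39 in FB.

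**Figure D2:**
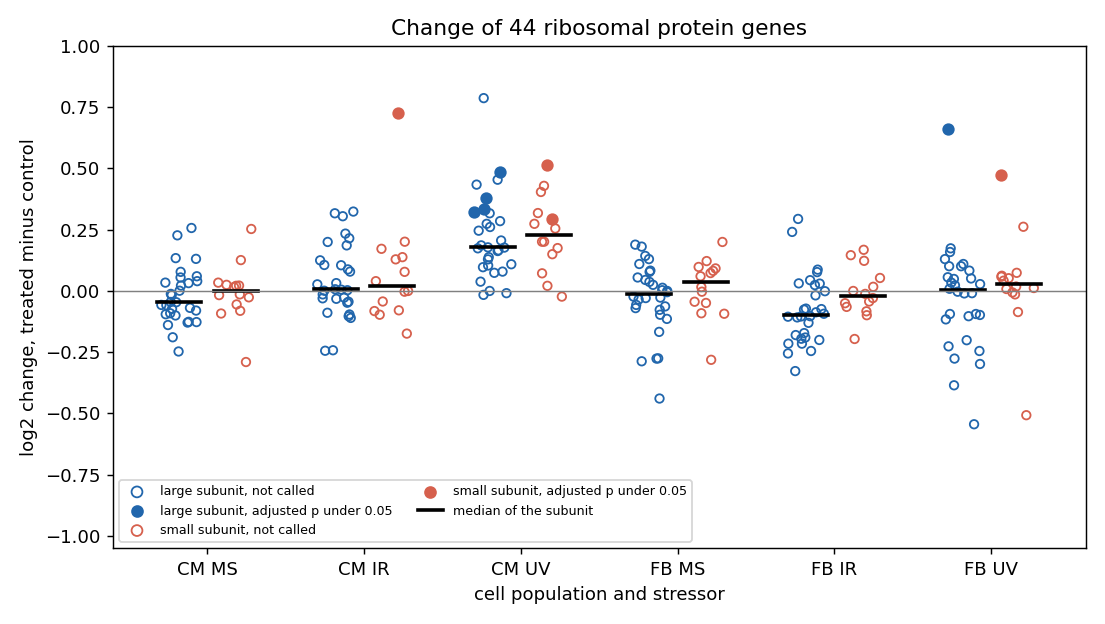
Log2 change (treated minus control within the numbered experiment, vertical axis) of each of the 44 members in the 6 comparisons (horizontal axis), large subunit in blue and small subunit in red; filled points passed an adjusted p of 0.05 and black bars are the medians of a subunit. The cloud sits around 0 except for CM after UV, where 40 of 44 points lie above 0, and the filled points apart from the rest after IR (CM) and UV (FB) include Rps27l.

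After UV, ribosomal protein signals were higher in CM fractions as a small shift over most members, with 6 of them past the test, while in FB the shift was not seen with the same processing. In CM the median log2 change was 0.19 (quartiles 0.11 and 0.32), beside 0.00 over all genes, and 40 of the 44 members were above 0 against 44.8% of all genes. Whether other genes as bright as the members shifted likewise was not tested. The median was 0.18 for the large subunit (4 of 30 called) and 0.23 for the small subunit (2 of 14 called), and the difference between the subunits was not tested. The median was 0.16 in experiment 1 and 0.25 in experiment 2. In both of these experiments 32 members were higher and 0 were lower, where 28.1% of all genes were higher in both and 30.2% lower in both. The third array of CM after UV is without a partner among the controls. It therefore does not enter these estimates, but its median member level of 11.45 lay beside the other treated arrays (11.44 and 11.41) and above the controls (11.31 and 11.13). The median change of the members stayed between 0.16 and 0.25 under the 14 alternatives for which it was computed.

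The 6 members that rose in CM after UV were Rps27l, Rpl14, Rpl13a, Rpl41, Rpl19 and Rpsa, which is 6 of 44 where 9.25% of all genes were called higher. The count is thus near the share of all genes. None of the 44 was called lower, where 9.25% of genes were. The tract at the annotated start was present in Rpl14 and Rpl19 and absent at this start in the other 4.

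Rps27l again changed most clearly, from 10.58 and 10.44 in the controls to 11.16 and 10.89 in the treated fractions of the same experiments, with 11.04 on the unpaired treated array. No treated array reached down to a control. The change was 0.52 (SE 0.08, 95% interval 0.33 to 0.70, adjusted p 0.00124), a 1.43-fold rise.

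Rpl13a, a large subunit protein that can leave the ribosome to silence inflammatory messengers and whose transcript often serves as a reference, read 11.08 and 11.05 in the controls and 11.41, 11.47 and 11.45 in the treated fractions. Groups were again separate, and the change was 0.38 (SE 0.07, 95% interval 0.22 to 0.54, adjusted p 0.00349). Its second probe-set changed by 0.41 (SE 0.14, adjusted p 0.0679).

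Rpl14, a large subunit protein, read 9.59 and 9.37 in the controls and 10.13, 9.80 and 9.85 after UV. It was higher by 0.55 and 0.43 in the 2 experiments (change 0.49, SE 0.13, adjusted p 0.0201). Rpl19, also of the large subunit, read 12.005 and 12.15 against 12.31, 12.49 and 12.51, a change of 0.32 (SE 0.09, adjusted p 0.0207). In both genes the groups did not overlap.

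Rpsa, a small subunit protein also known as the laminin receptor, read 11.66 and 11.77 in the controls and 12, 12.02 and 12.07 after UV. It changed by 0.29 (SE 0.09, adjusted p 0.0338), and its second probe-set by 0.36 (SE 0.07, adjusted p 0.00547). Rpl41, a very short peptide of the large subunit, had controls at 9.91 and 9.26 and treated arrays at 10.12, 9.71 and 9.70, so that its groups overlapped. Within the 2 experiments it was higher by 0.21 and 0.46 (change 0.33, SE 0.10, adjusted p 0.0431).

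These calls rested on 2 experiments. Without experiment 1 of CM after UV 3 members were called, without experiment 2 there were 2, and without the experiment as a block there was 1. Fitted on these arrays alone, with few residual degrees of freedom, there were 0. Rps27l passed in the first 3 of these fits. When a gene was called if at least 50% of its probe-sets passed, 12 members were higher in CM after UV. They included all 6 above and Rpl11, Rpl23, Rpl24, Rpl3, Rpl35 and Rps3. No share of all genes was computed for this rule or for the fits just described, so these counts have no background beside them. Rpl3, whose product lies near the peptidyl transferase centre, shows how far probe-sets can differ: its brightest probe-set changed by -0.01 (SE 0.15, adjusted p 1) and its other one by 0.29 (SE 0.06, adjusted p 0.00557). Of the 17 members with several probe-sets, all probe-sets changed in the same direction in 11.

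Some well-known members gave no call in CM after UV. Rplp0, the core of the ribosomal stalk and a frequent reference transcript, read 12.31 and 12.59 in the controls and 12.44, 12.72 and 12.68 after UV (change 0.13, SE 0.12, 95% interval -0.13 to 0.39, adjusted p 0.571). Rps6, the small subunit protein phosphorylated by S6 kinases, changed by 0.07 (95% interval -0.22 to 0.37). Rps29 and Rpl22 changed by 0.20 (-0.01 to 0.41) and 0.17 (-0.21 to 0.55). The second probe-set of Rps29 changed by -0.03 (SE 0.10). Rpl19l4 had the highest estimate of all members, 0.79, but its 2 experiments gave 1.51 and 0.06 (SE 0.41, adjusted p 0.239). For 30 of the 44 members the 95% interval lay within 1.5-fold.

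**Figure D3:**
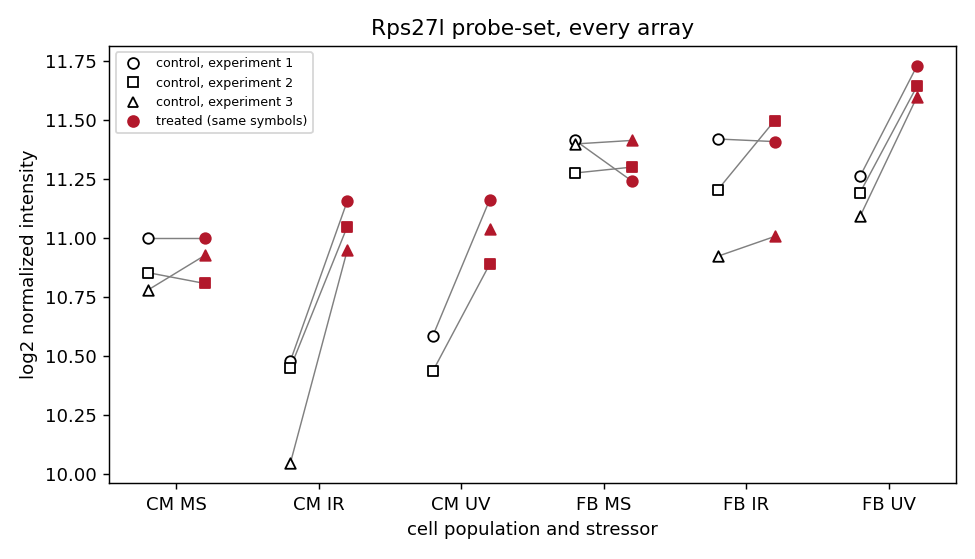
Log2 normalized intensity of the probe-set annotated as Rps27l on every array (vertical axis) by population and stressor (horizontal axis); open symbols are controls, red symbols treated arrays, grey lines join arrays of the same numbered experiment, and array 3 of CM after UV stands alone. Treated arrays lie above all controls in CM after IR, in CM after UV and in FB after UV, and overlap with them in the other 3 comparisons.

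Other measures moved with the UV treatment of CM. The counts of markers called stand beside 9.25% of all genes called higher and 9.25% called lower. Of the 14 cardiac myocyte markers 4 were called lower (median change -0.31, log2 of their summed signal 15.95 to 16.02 in controls and 15.64 to 15.75 in treated arrays). Of 13 fibroblast markers 5 were called lower (median -0.54, summed signal 13.85 to 14.37 and 13.62 to 14.08), and of 4 smooth muscle markers 2 (summed signal 12.18 to 12.30 and 11.62 to 11.76). Of 7 leukocyte markers 1 was called lower (7.96 to 8.24 and 7.91 to 8.37), and of 4 endothelial (7.40 to 8.99 and 7.20 to 7.64) and 2 erythroid markers (6.81 to 7.39 and 6.19 to 7.10) 0 were called. The 3′/5′ ratio of the actin control was 1.18 and 0.91 in the controls and 1.80, 1.17 and 1.23 in the treated arrays. The 5S ribosomal RNA control stood at 0.28 and 0.31 of the array's 75th percentile in the controls and at 0.44, 0.52 and 0.33 in the treated arrays. The part of these in the members' shift was not tested.

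In FB after UV 2 members passed, Rps27l and Rpl3l, both higher, where 13.4% of all genes were called higher. None was called lower, where 12.9% of genes were, and 7 members had an unadjusted p below 0.05 in either direction. Rps27l read 11.26, 11.19 and 11.09 in the controls and 11.73, 11.64 and 11.60 in the treated cultures. The groups were separate, and the 3 experiments gave 0.47, 0.45 and 0.51 (change 0.48, SE 0.07, 95% interval 0.33 to 0.63, adjusted p 2.46e-04). This is close to its change in CM after UV: the difference between the populations was 0.04 (95% interval -0.20 to 0.28, adjusted p 0.941). The probe-set annotated as Rps27l was thus the member that passed in 3 of the 6 comparisons, those of CM after IR and of both populations after UV.

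Rpl3l, a paralogue of Rpl3 known for its expression in heart and skeletal muscle, gave a dim signal that was no higher in CM (group means 5.31 to 5.88) than in FB (5.48 to 6.26). In FB after UV it read 5.66, 5.84 and 5.30 in the controls and 6.08, 6.71 and 5.99 in the treated cultures, all of the latter above the former. The change was 0.66 (SE 0.20, 95% interval 0.23 to 1.10, adjusted p 0.0306). With any 1 of the 3 experiments left out the adjusted p rose above 0.05 (0.0516 to 0.176), and with arrays scaled without quantile normalization it was 0.162 and 0.114. Its second, dimmer probe-set changed by -0.04 (SE 0.53). In CM after UV it changed by -0.02 (SE 0.25).

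The other members in FB after UV gave a median that depended on how arrays were brought to a common scale. With quantile normalization the median change of the 44 members was 0.02 (large subunit 0.00, small subunit 0.03), and 25 were above 0 against 51.2% of all genes. By experiment it was 0.10, -0.09 and 0.10, and 7 members were higher and 6 lower in all 3 (26.8% and 22.4% of all genes). With arrays scaled to the same 75th percentile only, it was -0.17, with 4 of 44 above the median of all probe-sets, 1 called higher and 2 lower. With arrays scaled to the trimmed mean it was -0.13, with 10 of 44 above, 1 called higher and 3 lower. The share of all genes called was not computed under these 2 scalings. The median of all probe-sets was 0.00 in FB after UV under each of the 3 scalings. In CM after UV the same 3 scalings gave 0.19, 0.18 and 0.18 for the members and 40 of 44 above the median of all probe-sets each time. That median was 0.00, -0.06 and -0.06 in CM after UV, so the members lay 0.19, 0.25 and 0.24 above it. No direction can therefore be given for the members as a group in FB after UV, apart from Rps27l, which passed under every alternative run (change 0.39 to 0.49). For 35 of the 44 members the 95% interval lay within 1.5-fold with quantile normalization.

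**Figure D4:**
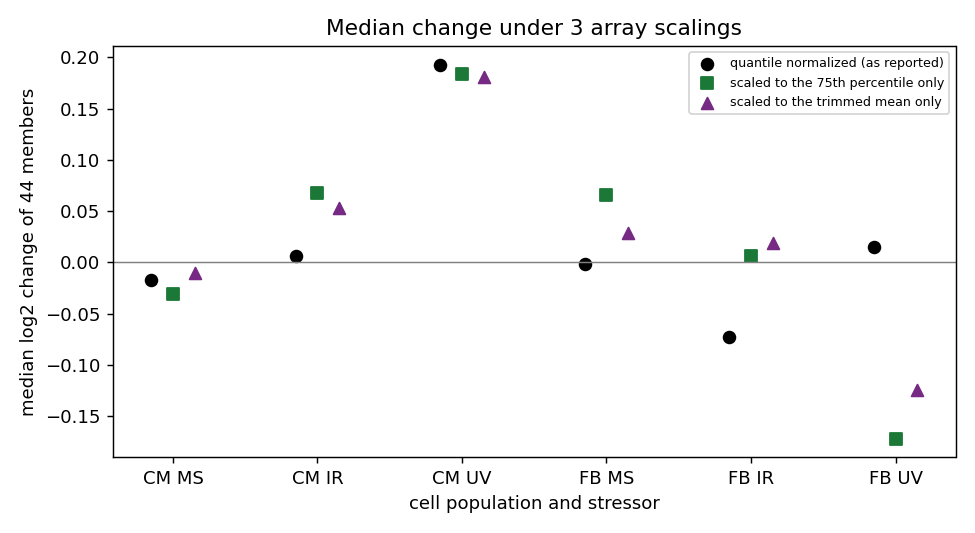
Median log2 change of the 44 members (vertical axis) in each comparison (horizontal axis) with quantile normalization (black circles), with arrays scaled to the same 75th percentile (green squares) and with arrays scaled to the same trimmed mean (purple triangles). The 3 values nearly coincide for CM after UV (0.18 to 0.19) and spread from 0.02 to -0.17 for FB after UV. The median of all probe-sets is not subtracted.

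In FB after UV the markers also moved. Their counts stand beside 13.4% of all genes called higher and 12.9% called lower. Of the 14 myocyte markers 12 were called lower (median change -1.07, summed signal 14.33 to 14.56 in controls and 13.07 to 13.57 in treated cultures), and of 13 fibroblast markers 5 were called lower (15.35 to 15.47 and 15.02 to 15.24). Of 4 smooth muscle markers 3 were called lower and of 7 leukocyte markers 2 were called higher, and none of the endothelial or erythroid markers was called. The part of these in the members' values was not tested.

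The difference between the populations after UV was positive for most members. The median of the change in CM minus the change in FB was 0.22 over the 44 members, beside -0.01 over all genes, and 39 of 44 were above 0 against 45.2% of all genes. For a single gene it passed only in Rpl13a (1 of 44, where 3.61% of all genes were called higher and 2.91% lower). Rpl13a changed by 0.38 in CM and by -0.10 in FB (95% interval -0.23 to 0.03), where the controls read 11.93, 11.96 and 11.99 and the treated cultures 11.88, 11.72 and 11.98. The difference was 0.48 (SE 0.09, 95% interval 0.27 to 0.68, adjusted p 0.011). The call was lost without the replicate block (adjusted p 0.346), with the block as a random effect (adjusted p 0.0873) and without experiment 2 of CM after UV (0.44, adjusted p 0.057). Rpl14 came next with 0.58 (SE 0.16, adjusted p 0.0584) and Rpl35 with 0.37 (SE 0.12, adjusted p 0.103). Both comparisons use their own controls. The difference after MS had a median of -0.03 with 0 calls (0% of all genes in either direction). It had 2 members at an unadjusted p below 0.05, beside 214 of the 4736 genes. After IR the median was 0.08, and 2 members had an unadjusted p below 0.05 (beside 405 of the 4736 genes), with 0 calls.

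**Figure D5:**
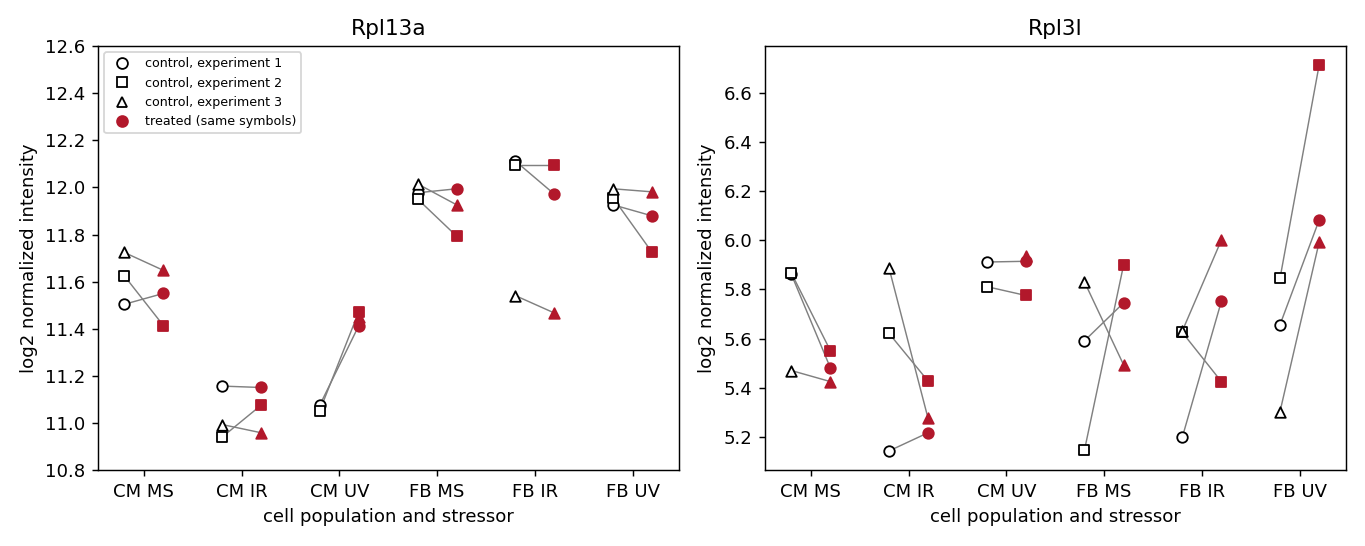
Log2 normalized intensity of Rpl13a (left) and Rpl3l (right) on every array (vertical axes, each with its own range) by population and stressor (horizontal axes); open symbols are controls, red symbols treated arrays, and grey lines join arrays of the same numbered experiment. Rpl13a rises from 11.05 and 11.08 to 11.41 and more in CM after UV while the FB arrays overlap, and Rpl3l rises in all 3 FB experiments after UV.

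Other genes of the translation machinery were followed in the same fit. No gene of these lists was called after MS or IR in either population. After UV, the shares over all genes beside which the counts of each list stand were 9.25% higher and 9.25% lower in CM, and 13.4% higher and 12.9% lower in FB. Initiation factors, which bring messenger and initiator tRNA to the small subunit, were called higher in 8 of 17 genes in CM (2 lower, median change 0.47) and in 8 of 17 in FB (0 lower, median 0.34) after this stressor. In CM the smallest adjusted p values belonged to Eif3d (0.93, SE 0.11, adjusted p 1.13e-04) and Eif2b5 (1.08, SE 0.13), followed by Eif2b1 (0.82) and Eif4a2 (0.97). In FB they belonged to Eif2b4 (0.92, SE 0.06, adjusted p 5.35e-07) and Eif3b (0.80, SE 0.08), followed by Eif4a2 (0.70) and Eif4e (0.45). Eif3b and Eif3d are subunits of the scaffold factor eIF3, the Eif2b genes encode the exchange factor for eIF2, and Eif4a2 is an RNA helicase of the cap complex. The 2 called lower in CM were Eif2b3 (-0.90, SE 0.26, adjusted p 0.0343) and Eif4e2 (-0.725, SE 0.17, adjusted p 0.0108). The Eif2b genes thus did not all move together, and Eif2b2 was called in neither population (0.09 in CM and -0.03 in FB).

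Ribosome biogenesis genes were called higher in 7 of 16 in CM after UV (median 0.29) and in 4 of 16 in FB (median 0.37), with 0 lower in both, where 9.25% and 13.4% of all genes were called higher. Nop58, a core protein of small nucleolar ribonucleoproteins, rose by 1.29 in CM (SE 0.09, adjusted p 4.56e-06) and 0.90 in FB (SE 0.08, adjusted p 2.98e-06). In CM Gnl3 (nucleostemin) rose by 2.41, nucleolin (Ncl) by 1.07 and the helicase Ddx21 by 0.92. In FB Ddx21 rose by 0.67 and Imp3 by 0.44. The remaining call of the 4 in FB was Nol3 (0.55), which is known as a repressor of apoptosis and not for a part in ribosome assembly. The called ribosomal proteins themselves changed by 0.29 to 0.52 in CM after UV.

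The 4 elongation factors on the array with a single symbol (Eef1a1, Eef1a2, Eef1g and Eef2, 0 called in either population) had medians of 0.10 in CM and -0.03 in FB after UV. Mitochondrial ribosomal proteins, which belong to a separate ribosome, had 2 of 14 genes called higher and 1 lower in CM, and 2 higher and 2 lower in FB. These counts are near the shares of all genes (9.25% each way in CM, 13.4% and 12.9% in FB). Mrpl38 rose in both (0.61 and 1.26) and Mrpl23 fell in both (by 0.51 and by 0.74). Of 5 aminoacyl-tRNA synthetases Vars1 (0.89) and Tars1 (0.52) were higher in CM and 0 were called in FB. Among 7 other messengers with a known TOP tract, Nap1l1 was higher (0.74) and Hnrnpa1 lower (-0.45) in CM, and 0 were called in FB. Of 14 regulators of translation, 2 were called higher and 2 lower in each population, again near the shares of all genes. Eif2ak2 (PKR, the double-stranded RNA kinase of eIF2) rose by 1.84 in CM and 1.92 in FB. Eif4ebp1, a repressor of cap-dependent initiation, fell by 0.77 and by 1.02. Akt1 was also lower in both (-0.46 and -0.49), while Myc was higher in CM (1.24) and Rheb in FB (0.22).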

How the data were processed

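RNA from 35 samples was hybridised to 1 RG-U34A array each. The deposited table gives 1 linear intensity per probe-set and array. The authors' methods name gcrma background correction, VSN and a probe-level linear model. Which software made the deposited intensities is not given in the sources used here. The deposited intensities had a common trimmed mean on 26 arrays (200.3 to 200.4) and another on 9 (1001.5 to 1001.7), and no pair of arrays was identical. The 9 were all CM arrays for IR, and control 2 and treated arrays 2 and 3 of CM for UV. Here arrays were first brought to 1 common 75th percentile. Values under the 20th percentile (6.71) were set to it, and the log2 values were quantile normalized between arrays. After leaving out 59 control probe-sets, 8740 were fitted with limma 3.58.1 (lmFit, eBayes with a variance trend, R 4.3.3) over all arrays, with the numbered experiment within population and stressor as a fixed block (11 residual degrees of freedom). The study's model was fitted to single probes and held a term for treatment by experiment. The fit here uses 1 value per probe-set and has no such term. Tests were two-sided with Benjamini-Hochberg adjustment over all 8740 probe-sets of a comparison, and a gene was called at an adjusted p below 0.05. Titles that carry no number count as experiment 1. The study describes its experiments per stressor as independent. UV-treated CM array 3 has no control and is absorbed by its block. Symbols came from the array annotation and a RefSeq gene table (GRCr8): a single symbol was found for 7006 probe-sets (6985 matched by gene number), several for 308 and none for 1426. Start sequences are from RefSeq. Background shares count the brightest probe-set of each of 4736 genes.

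The precision is limited by the number of arrays. The median standard error of the members was 0.10 (0.13 for CM after UV), against 0.21 (0.25) over all probe-sets, on the log2 scale. The fit was also run on simulated arrays with normal noise and known changes. No floor or normalization was applied to them, so that run cannot bear on the floor or on the scaling of arrays. Members and gene lists were chosen with earlier results of these data known. Genes were named by rule: called members, a set of well-known members, the 3 smallest p values where none was called, and up to 4 genes of each other list. Rpl19l4, the members added by the rule of 50% of probe-sets, and Eif2b2, Eif2b3 and Eif4e2 were named after their values were seen. Alternatives changed 1 choice at a time: scaling, floor, pseudocount, dim probe-sets, block, variance trend, arrays in the fit, threshold, scan, lot, probe-set rule and leaving out an experiment. 2 further alternatives on which probe-sets count as members were chosen after seeing the data.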

Additional observations from a re-analysis of the deposited data

Results flagged for a closer look

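Rpl13a differed between the 2 populations after UV in the test of the difference itself: the change in CM minus the change in FB was 0.48 on the log2 scale (SE 0.09, adjusted p 0.011 by limma). The call was lost in 4 of 14 alternatives: without the replicate block (adjusted p 0.346), with a random block (0.0873), without experiment 2 of CM after UV (0.057) and at a threshold of 0.005. It was higher in both CM experiments (0.34 and 0.42) and lower in all 3 FB experiments (by 0.05, 0.23 and 0.01 on the log2 scale).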

How the results depend on the processing

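The 35 arrays limit what can be seen: after UV the CM values rest on 2 paired experiments, and fits on a comparison's own arrays have few residual degrees of freedom. Among the single members, all 12 alternatives kept a positive change for each of the 6 members called in CM after UV. These members were picked as higher in the same arrays, so that sign was largely set in advance. The call itself was kept in 4 (Rpsa) to 11 (Rps27l) of the 12. As a check of the pairing, deviations from group means correlated at 0.0628 to 0.7965 within 17 numbered pairs, above 0.1 in 15, and 16 of 17 treated arrays correlated best with the control of their own number. The number called in CM after UV (6) was 1 without the replicate block, where the pairing by number is not used, 0 with its own arrays only, 2 at an adjusted p below 0.005, 12 by the rule of 50% of probe-sets, 15 with probe-sets of several symbols added, and 2 to 3 leaving out an experiment. In CM after IR the call of Rps27l was lost with own arrays only (0 called), and the median of 0.006 was 0.068 and 0.053 with arrays scaled to the 75th percentile or trimmed mean without quantile normalization. With the same 2 scalings it was 0.066 and 0.029 in FB after MS, 0.006 and 0.019 in FB after IR, and -0.172 and -0.125 in FB after UV, where 1 was called higher and 2 or 3 lower. Leaving out an experiment the median ran from -0.057 to -0.005 in CM after MS, from 0.019 to 0.024 in CM after IR, from -0.046 to -0.001 in FB after MS and from -0.073 to -0.004 in FB after IR. In FB after UV 1 was called higher with own arrays only, at 0.005, with dim members left out and without any 1 experiment, and 1 lower with dim probe-sets left out. The number that differed between the populations was 1 after IR with a higher floor. After UV it was 2 with either scaling and with dim probe-sets left out, 0 without the replicate block, with a random block and at 0.005, 5 by the 50% rule, 3 with several symbols added, and 0 to 1 leaving out an experiment. The causes were not tested. The share of all genes called was computed only for the fit as reported, so counts under the alternatives have no background beside them.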
